A study of Mus musculus with 4 samples.

Results

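The 10 receptor genes through which aortic cells sense noradrenaline, extracellular nucleotides, endothelin, prostaglandin E2 and sphingosine 1-phosphate were followed across cell classes, aortic regions and genotypes. They are Adra1a, Adra1b, Adra1d, P2rx1, P2rx4, Ednra, Ednrb, Ptger3, S1pr1 and S1pr3. The genes were chosen by name, with earlier results of these data known. Counts of them set beside the share of all genes are therefore descriptions. They were taken from the matrices by Ensembl identifier, and all 10 were found in every library, among 27734 gene identifiers that the 4 libraries share.

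The study profiled dissociated aortic cells of adult mice aged 16 to 20 weeks by droplet single-cell RNA sequencing with the 10x Genomics 5′ chemistry, in which a unique molecular identifier (UMI) marks each captured RNA molecule. One library was made from each of 4 groups. The mutant mice (cKO in the figures) were CNC-SMC-Cre;Smad4flox/flox;R26-tdT, and the control mice were CNC-SMC-Cre;R26-tdT, so both carried the Cre and the R26-tdT reporter and only the mutants carried the floxed Smad4 alleles. Each genotype was sampled once from the aortic arch and once from the descending thoracic aorta. Smad4 encodes the shared mediator of TGF-β and BMP signals. The labels do not spell out which cells express the Cre, how many animals went into a library, or which part of Smad4 is deleted, so Smad4 counts at the 5′ end check nothing about the deletion.

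The alpha-1 adrenergic receptors (Adra1a, Adra1b, Adra1d) couple through Gq to phospholipase C and intracellular calcium and contract arterial smooth muscle in answer to noradrenaline. P2rx1 and P2rx4 are ATP-gated cation channels, and P2rx1 carries the fast response of arterial muscle to ATP released from sympathetic nerves. Ednra mediates contraction by endothelin, whereas Ednrb on endothelium clears endothelin and promotes relaxation. Ptger3 is a Gi-coupled prostaglandin E2 receptor, S1pr1 is the Gi-coupled sphingosine 1-phosphate receptor that keeps endothelium tight, and S1pr3 is its Gq- and G12/13-coupled relative in vessel walls.

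The libraries held 6351 to 9283 barcodes and 49407811 to 98866674 UMIs, and 4939 to 8001 cells per library were kept after filtering. Every comparison below sets 1 library against 1 other library, so no test and no p-value is given. Intervals are 95% intervals of counting error only, and animals, dissection and library preparation cannot be told apart from genotype or region. A level is given as CPM, the receptor's UMIs divided by all UMIs of the cell class and multiplied by 1000000. The arch control library stood apart in depth, and it was the single library with Y-linked RNA (Ddx3y 14.1 CPM, 0 in the others) beside Xist. The mutant arch library was counted against a smaller annotation (28693 features against 32285). Between 66 and 99 barcodes were shared by any 2 libraries, 1.04% to 1.37% of the smaller library.

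Cells were gated on marker genes that include none of the 10 receptors. Smooth muscle cells numbered 1135 in the mutant arch, 3561 in the control arch, 1402 in the mutant descending aorta and 1194 in the control descending aorta. In all 4 libraries Myh11, the smooth muscle myosin heavy chain, was detected in at least 98.9% of the gated smooth muscle cells. Endothelial cells numbered 140, 682, 994 and 778 in the same order, fibroblasts 247, 1436, 1015 and 814, and pericytes 4, 55, 66 and 53. The 4 mutant arch pericytes were too few to compare. The pericytes also differed in make-up: 26 of 55 control arch pericytes fell in the cluster that holds 57 of 66 mutant and 48 of 53 control descending pericytes. Of the mutant arch cells, 38.3% passed no gate or more than 1 (13.6% to 16.8% elsewhere), and 887 of those 2084 belonged to a cluster led by Spp1, Ibsp and Comp that is described at the end.

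Receptor levels differed between the cell classes, as the plot of levels by cell class shows. The highest class of Adra1b and of Ptger3 changed with the library. P2rx1 and Adra1d were highest in smooth muscle in all 4 libraries, S1pr1 was highest in endothelium in all 4, and Ednra and Ednrb were highest in pericytes in the 3 libraries with pericytes. P2rx4 was highest in fibroblasts in 3 libraries and in pericytes in the mutant descending library. Its fibroblast and pericyte levels did not differ beyond counting error in any of the 3 libraries with pericytes.

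**Figure D1:**
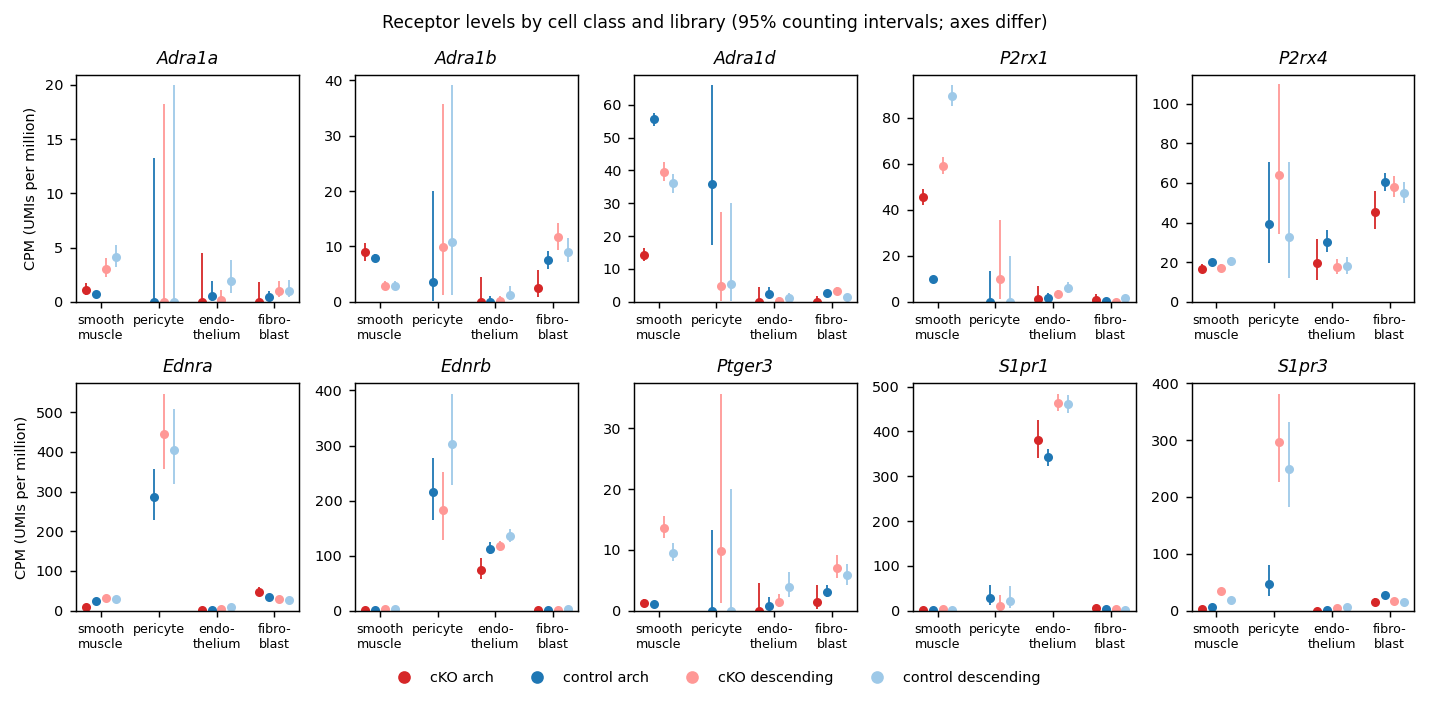
Levels of the 10 receptors, in CPM (linear axes that differ between panels), in smooth muscle, pericytes, endothelium and fibroblasts of each library; points are sums over all cells of the class and bars are 95% counting intervals. S1pr1 stands at 342 to 464 CPM in endothelium and below 30 CPM elsewhere, and Ednra at 287 to 444 CPM in pericytes; the 4 mutant arch pericytes are not drawn.

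Adra1d (chromosome 2, 131545850 to 131562283, minus strand, GRCm38; it overlaps Gm14285 on the other strand) was the alpha-1 receptor read most often in smooth muscle. Its level was 14.3 CPM (12.4 to 16.4) in the mutant arch, 55.6 (53.6 to 57.6) for the control arch, 39.6 (36.7 to 42.7) for mutant descending and 36.0 (33.2 to 39.0) for control descending cells. The mutant arch was the low library and the control arch the high one, and their intervals did not overlap. Adra1d was read in 15.1% of mutant arch and 47.0% of control arch smooth muscle cells, and in 2.68% and 10.5% after each cell was thinned to 2000 UMIs. In mononuclear phagocytes, which should lack it, at most 0.32% of cells had a UMI, at median depths of 6371 to 9434 UMIs against 11146 to 14163 in smooth muscle.

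Adra1b (chromosome 11, 43774606 to 43901210, minus strand) was low in smooth muscle, at 8.96 CPM in the mutant arch, 7.83 in the control arch, 2.89 in the mutant descending and 2.90 in the control descending library. Both arch libraries were therefore above both descending libraries, with no overlap of intervals. Fibroblasts had it at 2.45, 7.48, 11.7 and 9.08 CPM in the same order, so that the descending fibroblasts were above descending smooth muscle while the control arch classes did not differ beyond counting error. Adra1a (chromosome 14, 66635251 to 66771168, plus strand) was read rarely, with 15, 41, 53 and 68 smooth muscle UMIs, or 1.07, 0.76, 3.06 and 4.10 CPM, and both descending libraries were above both arch libraries. Mononuclear phagocytes had 0 to 0.18 CPM of Adra1a.

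P2rx1 (chromosome 11, 72999103 to 73015200, plus strand) was highest in smooth muscle among the classes compared in each library. Its smooth muscle level was 45.6 CPM (42.1 to 49.2) in the mutant arch, 9.92 (9.10 to 10.8) for the control arch, 59.2 (55.6 to 62.9) for mutant descending and 89.5 (85.0 to 94.2) for control descending cells. The control arch was lowest and no 2 intervals overlapped. Endothelium had 1.22 to 5.81 CPM and fibroblasts 0.12 to 1.51 CPM. P2rx4 (chromosome 5, 122707544 to 122729738, plus strand) was even across smooth muscle libraries, at 16.8, 20.3, 16.9 and 20.3 CPM. In fibroblasts it stood at 45.5 to 60.2 CPM, and in endothelium at 17.7 to 30.4 CPM.

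Ednra (chromosome 8, 77663031 to 77724464, minus strand; it overlaps 4933431K23Rik on the other strand) was read in pericytes at 287 CPM (227 to 357) for the control arch, 444 (357 to 546) for mutant descending and 406 (319 to 509) for control descending cells. Smooth muscle had 8.24 CPM in the mutant arch, 25 in the control arch, 30.5 in the mutant descending and 30.3 in the control descending library, with the mutant arch alone low. Fibroblasts had 47.9, 33.7, 28.3 and 27.2 CPM in the same order, so in the mutant arch, which has almost no pericytes, fibroblasts were the highest class.

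Ednrb (chromosome 14, 103814625 to 103844402, minus strand) was read in pericytes at 215, 183 and 303 CPM in the same 3 libraries and in endothelium at 74.4 CPM in the mutant arch, 113 in the control arch, 117 in the mutant descending and 136 in the control descending library. The pericyte level was above the endothelial level in each of the 3 libraries. Endothelial markers had a median of 8.34 to 8.62 UMIs per 10000 in those pericytes against 95.3 to 117 in endothelium; their part in the pericyte Ednrb level was not tested. Smooth muscle had 0.71 to 3.64 CPM of Ednrb, against 0.43 to 1.74 CPM in T cells. The 2 arch values lay within that range and the 2 descending values, 3.64 and 2.90 CPM, above it.

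S1pr1 (chromosome 3, 115710433 to 115715072, minus strand) was read in 64.8% to 73.9% of endothelial cells, and its endothelial level was 381 CPM (340 to 425) in the mutant arch, 342 (324 to 361) for the control arch, 464 (446 to 483) for mutant descending and 461 (441 to 482) for control descending cells. The 2 descending libraries were above the 2 arch libraries with no overlap. Smooth muscle had 1.48 to 3.24 CPM of S1pr1.

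S1pr3 (chromosome 13, 51408639 to 51422797, plus strand; it overlaps Gm32834 on the other strand) was read in pericytes at 296 CPM (226 to 381) in mutant and 249 (182 to 332) in control descending libraries but at 46.6 (24.8 to 79.7) in the control arch. In smooth muscle it stood at 2.63, 5.45, 34.9 and 19 CPM in the mutant arch, control arch, mutant descending and control descending libraries, and all 4 intervals were apart. Fibroblasts had 15.6, 27.1, 16.6 and 15.4 CPM, with the control arch alone high. Ptger3 (chromosome 3, 157566892 to 157645888, plus strand) had 1.21, 1.02, 13.6 and 9.54 CPM in smooth muscle, low in both arch libraries, and 1.47, 3.07, 7.04 and 5.80 CPM in fibroblasts.

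Within smooth muscle, a small cluster of cells had the highest levels of S1pr3, Ptger3, Ednra, P2rx1, Adra1a and Ednrb. This held in every library but the mutant arch, where the cluster had too few cells to be compared. When cells were clustered on genes other than the 10 receptors, 1 smooth muscle cluster was led by Rergl, Mrgprh, Olfr78, Scn4b, Olfr558 and Nrip2, among them the olfactory-type receptors Olfr78 and Olfr558 and the sodium channel subunit Scn4b. It is called the Rergl cluster here and is given no cell type name. It held 10 of 1135 gated smooth muscle cells in the mutant arch (0.88%), 71 of 3561 in the control arch (1.99%), 183 of 1402 in the mutant descending aorta (13.1%) and 97 of 1194 in the control descending aorta (8.12%). The cluster was picked out after its receptor levels had been seen, so its values are a description.

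S1pr3 was almost confined to the Rergl cluster within smooth muscle. In its cells S1pr3 stood at 425 CPM (374 to 481) for the control arch, 336 (309 to 365) for mutant descending and 331 (294 to 372) for control descending cells. In the largest other cluster of each of these libraries it stood at 0.299, 0.185 and 0.318 CPM, and no other cluster with 50 or more cells was above 10.2 CPM. The Rergl cluster held 253 of 295 smooth muscle S1pr3 UMIs in the control arch (85.8%), 572 of 604 in the mutant descending (94.7%), 287 of 315 in the control descending (91.1%) and 16 of 37 in the mutant arch (43.2%).

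Ptger3, Ednra, P2rx1, Adra1a and Ednrb were also highest there. Ptger3 was at 58.8 CPM (41.0 to 81.8) in the Rergl cells of the control arch, 89.4 (75.7 to 105) in those of the mutant descending and 82.0 (64 to 103) in those of the control descending library, against 0 to 9.78 CPM in the other smooth muscle clusters. Ednra was at 160, 191 and 201 CPM in the same order, and Adra1a at 30.2, 18.2 and 47.3 CPM against at most 4.4 CPM elsewhere. P2rx1 was at 225 and 226 CPM in the control arch and mutant descending library and 390 CPM (350 to 434) in the control descending library. Ednrb was at 13.4, 25.9 and 32.3 CPM. The share of smooth muscle UMIs in Rergl cells varied by library. It was 63.6%, 64.4% and 44.9% for Ptger3 in the same order, 43.9%, 58.5% and 60.3% for Adra1a, 25%, 37.6% and 22.8% for P2rx1, 7.01%, 61.7% and 34.7% for Ednra and 11.9%, 69.8% and 58.3% for Ednrb. In the mutant arch it was 1.56% to 11.8% for these 5 receptors. Rergl cells thus had high levels of an endothelin, a purine, an adrenergic, a prostaglandin and a sphingosine 1-phosphate receptor in all 3 libraries with 50 or more such cells. Adra1b was at 11.8, 8.23 and 15.0 CPM in Rergl cells in the same order, against at most 9.56, 4.18 and 3.31 CPM in the other clusters. Only in the control descending library did its interval (7.99 to 25.7) lie apart from theirs. Rergl cells held 1.65%, 28% and 27.1% of smooth muscle Adra1b UMIs. S1pr1 was at 5.04, 5.29 and 3.46 CPM, from 3, 9 and 3 UMIs, and did not differ from the next cluster beyond counting error. Adra1d, at 21.2 to 28.6 CPM in Rergl cells, was below the other clusters in both descending libraries but not in the control arch. P2rx4, at 8.40 to 11.5 CPM from 5, 19 and 10 UMIs, was below them in all 3 libraries. In each library the intervals of both receptors overlapped those of another cluster.

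**Figure D2:**
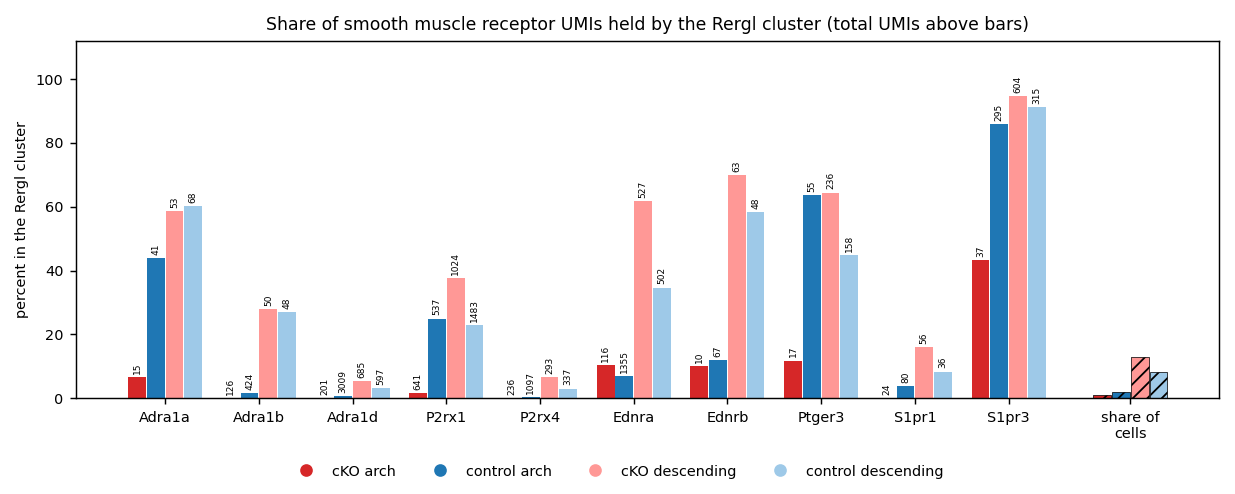
Percent of each receptor's smooth muscle UMIs that lie in the Rergl cluster, by library, with the total smooth muscle UMIs printed above each bar; hatched bars on the right give the cluster's percent of smooth muscle cells. The S1pr3 bars reach 85.8% to 94.7% outside the mutant arch while the cell share is 1.99% to 13.1%.

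The sequences just upstream of 4 of these receptors, S1pr3, Ptger3, P2rx1 and Ednra, were set side by side because they share high levels in Rergl cells. Ednrb has an entry in the RefSeq promoter table as well and is not printed. Of the 10 receptors, 7 had an entry, with 8 start sites. Each line gives the bases before the RefSeq start on the GRCm38.p6 build, 5′ to 3′ on the gene's strand, cut where the GENCODE gene body begins further upstream. Capitals mark matches on either strand to 2 letter strings known to bind SMAD proteins, CAGAC (read as GTCTG on the other strand) and GGCGCC, and the CArG box bound by serum response factor was searched as well. The windows are S1pr3 at chr13:51408368-51408617 (plus strand), Ptger3 at chr3:157566626-157566875 (plus strand), P2rx1 at chr11:72998895-72999102 (plus strand) and Ednra at chr8:77724465-77724702 (minus strand).
S1pr3: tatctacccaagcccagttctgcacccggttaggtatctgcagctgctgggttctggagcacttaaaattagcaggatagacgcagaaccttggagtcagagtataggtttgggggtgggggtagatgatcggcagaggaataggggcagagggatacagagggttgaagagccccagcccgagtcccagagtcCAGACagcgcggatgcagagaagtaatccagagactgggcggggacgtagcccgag
Ptger3: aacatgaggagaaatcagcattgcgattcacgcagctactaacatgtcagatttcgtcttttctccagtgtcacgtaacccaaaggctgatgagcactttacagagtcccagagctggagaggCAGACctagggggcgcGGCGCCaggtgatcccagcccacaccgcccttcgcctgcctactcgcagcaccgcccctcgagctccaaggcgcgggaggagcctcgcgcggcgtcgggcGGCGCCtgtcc
P2rx1: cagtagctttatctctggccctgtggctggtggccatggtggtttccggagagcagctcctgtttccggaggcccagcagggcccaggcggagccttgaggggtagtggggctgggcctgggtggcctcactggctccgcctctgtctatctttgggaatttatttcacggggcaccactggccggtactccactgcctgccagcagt
Ednra: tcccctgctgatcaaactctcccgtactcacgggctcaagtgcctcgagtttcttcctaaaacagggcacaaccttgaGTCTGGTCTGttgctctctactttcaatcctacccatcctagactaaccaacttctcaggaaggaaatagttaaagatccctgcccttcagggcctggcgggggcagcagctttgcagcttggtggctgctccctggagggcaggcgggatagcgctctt
S1pr3 held 1 CAGAC match, 56 bases before the start, Ptger3 held 1 CAGAC and 2 GGCGCC matches, Ednra held 2 adjacent GTCTG matches and P2rx1 held none. No match of the 2 strings overlapped the other. Of 32851 promoters of 250 bases, 42.2% hold CAGAC, 9.59% hold GGCGCC and 1.47% hold a CArG box, and none of the 8 receptor start sites had a CArG box in this window. No match was shared by all 4 sequences.

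The other smooth muscle clusters divided by library, as the plot of cluster shares shows. Apart from the comparison of the 2 descending libraries, the smooth muscle comparisons below set libraries against each other whose cells lie mostly in different clusters. In the mutant arch 71.3% of smooth muscle cells were in a cluster led by Sncg and Igfbp2 and 13.9% in the Spp1 cluster. In the control arch 67.6% were in a cluster led by Des and 13.3% in a cluster led by the homeobox genes Msx2 and Dlx5. Both descending libraries had more than 51% of their cells in a cluster with Tcap and Ccdc42 among its leading genes, called the Tcap cluster here. Only the Sncg cluster had 50 or more cells in each library, with 809, 103, 208 and 209 cells.

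**Figure D3:**
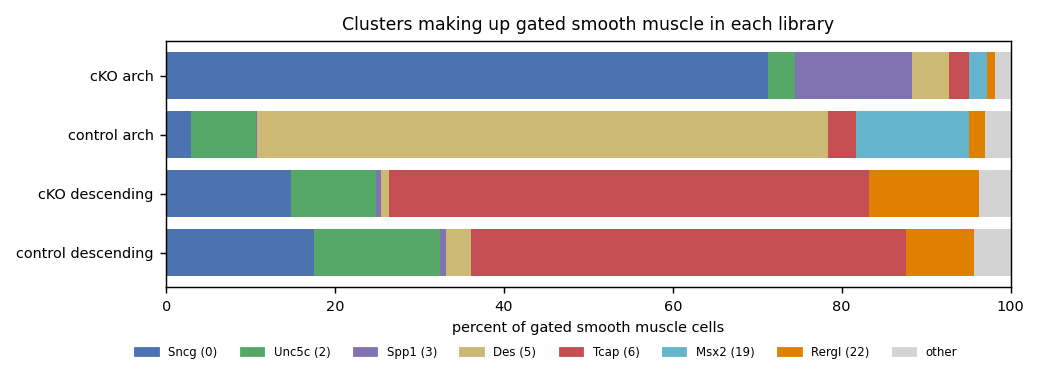
Share of gated smooth muscle cells in each cluster, in percent, for each library, with clusters named by a leading gene and number. The Sncg cluster makes up 71.3% of the mutant arch, the Des cluster 67.6% of the control arch, and the Rergl cluster 13.1% of the mutant descending library.

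The effect of the Smad4 genotype in the arch was asked first. In smooth muscle P2rx1 was higher in the mutant arch than in the control arch by 2.20 on the log2 scale (2.03 to 2.37), while Adra1d was lower at -1.96 (-2.17 to -1.75), Ednra lower at -1.60 (-1.89 to -1.33) and S1pr3 lower at -1.03 (-1.59 to -0.55). These 4 of the 10 receptors were 2-fold or more apart. Among 12523 genes with at least 50 UMIs in the 2 libraries together, 12.4% were, 4.05% higher and 8.38% lower in the mutant. The remaining 6 receptors lay between -0.74 for Ednrb and 0.52 for Adra1a.

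Those 4 differences did not rest on the same cells. Within the Sncg cluster Adra1d was 13.8 CPM in the mutant arch and 32.5 in the control arch, a log2 difference of -1.25 (-1.71 to -0.75), so it stayed past 2-fold there. In the Unc5c cluster, counting all its cells whether gated or not, Adra1d was 10.6 CPM in 433 mutant arch cells and 78.3 CPM in 542 control arch cells. Of these cells, 36 in the mutant arch and 274 in the control arch were gated smooth muscle, while 395 and 266 were ungated. The Unc5c values therefore set cells of unlike make-up against each other and are not a comparison within smooth muscle. P2rx1 in the Sncg cluster was 54.5 and 44.0 CPM, a difference of 0.30 (-0.05 to 0.69) whose interval holds 0, while in the Unc5c cluster it was 52.1 CPM in the mutant and 16.6 CPM in the control arch. The Des cluster, most of the control arch, had 6.66 CPM of P2rx1.

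Ednra in the control arch came largely from the Msx2 cluster, where it stood at 88.7 CPM (82.1 to 95.7) and which held 672 of 1355 smooth muscle Ednra UMIs (49.6%) in 13.3% of cells. Without the Msx2 and Spp1 clusters the Ednra difference in the arch was -0.76, and within the Sncg cluster it was -0.88 (-1.56 to -0.08), neither past 2-fold. S1pr3 turned its direction without the Rergl cluster, to 0.95 (0.11 to 1.72), from 21 and 42 UMIs, although in the Sncg cluster it was 0.878 against 10.2 CPM, from 9 and 16 UMIs. With median-of-ratios scaling S1pr3 was at -0.89, under 2-fold. The median over all genes was -0.14 and that of the 10 receptors -0.04. In the mutant arch the summed level of 5 neutrophil markers in smooth muscle was 17.1 CPM, against 0.70 CPM in the control arch, with none of the 5 at 0 in either; their part in these differences was not tested.

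**Figure D4:**
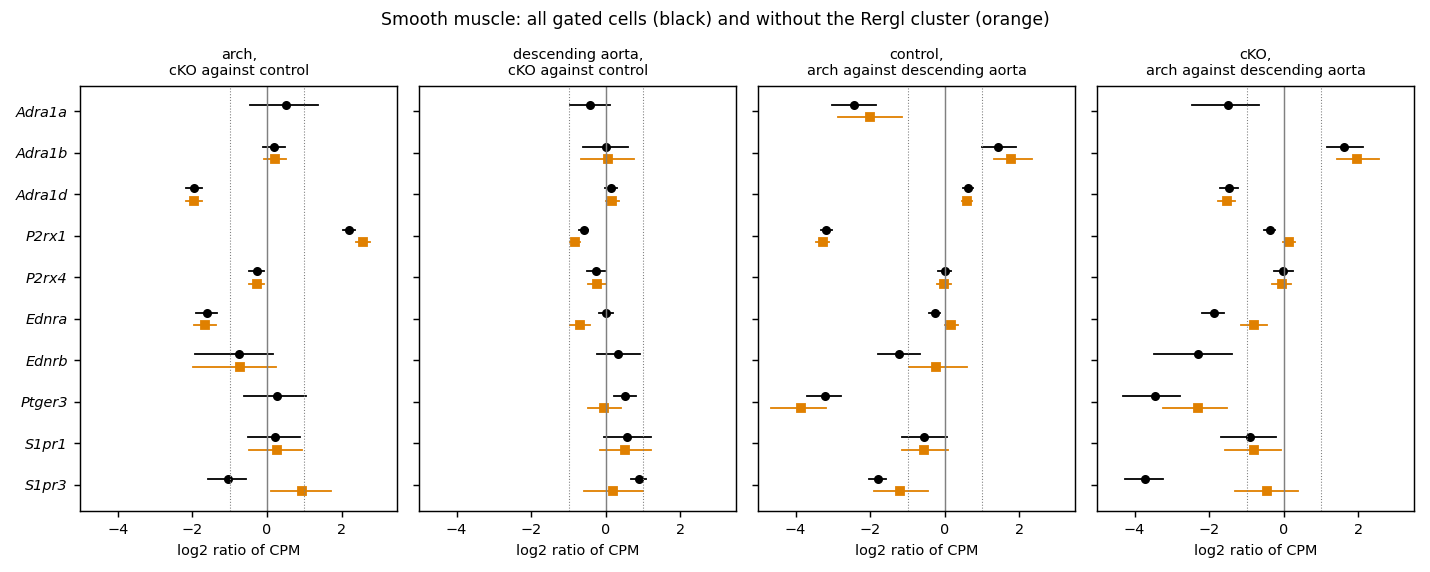
Log2 ratios of smooth muscle CPM for the 10 receptors in each of the 4 comparisons, over all gated smooth muscle cells (black circles) and without the Rergl cluster (orange squares), with 95% counting intervals; dotted lines mark 2-fold and receptors under 50 UMIs in both libraries together are left out. S1pr3 in the arch passes from -1.03 to 0.95, and Adra1d and P2rx1 keep their arch differences at -1.96 and 2.58.

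In the descending aorta none of the 10 receptors was 2-fold apart between mutant and control smooth muscle, and 1.24% of 11731 genes were. No test could be made with 1 library a group. S1pr3 was nearest at 0.88 (0.68 to 1.08), followed by P2rx1 at -0.60 (-0.71 to -0.48), S1pr1 at 0.57 (-0.05 to 1.22) and Ptger3 at 0.51 (0.22 to 0.82). Without the Rergl cluster S1pr3 was at 0.20 (-0.58 to 0.99) and Ptger3 at -0.04 (-0.49 to 0.41), with 2.05 and 1.78 CPM of S1pr3 left. P2rx1 was lower in the mutant in each of 4 clusters with 50 or more cells in both libraries: 98.3 against 141 CPM in the Sncg cluster, 80.9 against 115 in the Unc5c cluster, 21.7 against 39.8 in the Tcap cluster and 226 against 390 in the Rergl cluster. Adra1d stood at 0.14 (-0.02 to 0.30) and Ednra at 0.01 (-0.17 to 0.19). Without the Rergl cluster Ednra was at -0.69 (-0.95 to -0.43).

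The regions were compared within the controls next. Adra1b was higher in the control arch than in the control descending aorta by 1.42 (1.00 to 1.90), while Ptger3 was lower at -3.22 (-3.70 to -2.78), P2rx1 at -3.17 (-3.32 to -3.03), Adra1a at -2.43 (-3.03 to -1.86), S1pr3 at -1.80 (-2.04 to -1.57) and Ednrb at -1.23 (-1.78 to -0.66). Thus 6 of the 10 were 2-fold or more apart, against 7.06% of 12578 genes, 3.39% higher and 3.67% lower in the arch. Adra1d stood at 0.62 (0.50 to 0.75), S1pr1 at -0.57, Ednra at -0.28 and P2rx4 at -0.01 (-0.18 to 0.17).

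Outside the Rergl cluster 5 of these differences remained past 2-fold, against 6.5% of 12492 genes: Adra1b at 1.79, Ptger3 at -3.86, P2rx1 at -3.28, Adra1a at -2.0 and S1pr3 at -1.19, the last from 0.78 against 1.78 CPM. Ednrb was at -0.23 (-0.96 to 0.60). P2rx1 was lower in the arch within each shared cluster, at 44.0 against 141 CPM in the Sncg cluster, 16.6 against 115 in the Unc5c cluster, 13.2 against 39.8 in the Tcap cluster and 225 against 390 in the Rergl cluster. Ednra was lower in the arch in the Sncg cluster at -1.37 (-2.14 to -0.72) and higher in the Tcap cluster at 1.64 (0.73 to 2.41), from 17 and 58 UMIs. S1pr3 was higher in the arch in the Sncg cluster at 1.48 (0.32 to 2.71), from 16 and 12 UMIs. In the Unc5c cluster S1pr3 was at -1.96 (-7.99 to 0.97), from 1 and 4 UMIs, and the Tcap cluster had 0 and 3 UMIs. Adra1a was at 0.29 in the Sncg, -1.16 in the Unc5c and 2.00 in the Tcap cluster, each interval holding 0.

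In the mutant libraries 7 of the 10 receptors were 2-fold or more apart between arch and descending aorta, against 11.3% of 11629 genes, 3.75% higher and 7.58% lower in the arch. Adra1b was higher in the arch by 1.62 (1.15 to 2.13). The 6 lower in the arch were S1pr3 at -3.71 (-4.25 to -3.25), Ptger3 at -3.46 (-4.30 to -2.79), Ednrb at -2.30 (-3.49 to -1.38), Ednra at -1.88 (-2.19 to -1.59), Adra1a at -1.49 (-2.46 to -0.67) and Adra1d at -1.47 (-1.70 to -1.24). P2rx1 was at -0.38 (-0.52 to -0.23). The median over all genes was -0.18. Without the Rergl cluster 3 of 8 measured receptors were past 2-fold, against 10.2% of 11487 genes: Adra1b at 1.95, Ptger3 at -2.29 and Adra1d at -1.53, while S1pr3 was at -0.44 (-1.32 to 0.39) and Ednra at -0.80 (-1.16 to -0.45). Adra1a and Ednrb then had under 50 UMIs. Within the Sncg cluster Ednra was at -1.72 (-2.21 to -1.23), from 76 and 70 UMIs. S1pr3 was there at -3.02 (-4.37 to -1.87), from 9 and 21 UMIs, too few to count as measured. Summed levels of 10 pericyte markers, none of them at 0, were 897 CPM in mutant arch smooth muscle, 1306 CPM in that of the control arch, 2071 CPM in the mutant descending and 1716 CPM in the control descending library. The 10 include Rgs5, followed below as a coupling gene in smooth muscle, so their sum does not measure pericyte RNA alone. The cluster that holds most descending pericytes also held 0, 2, 31 and 17 gated smooth muscle cells in the same order. The part of pericyte RNA, or of these cells, in the differences was not tested. The 4 comparisons share libraries, so the low P2rx1 of the control arch, for example, enters both the arch comparison and the control comparison.

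Differences in the other classes were fewer. In pericytes 3 receptors had enough UMIs, and S1pr3 alone was past 2-fold, lower in the control arch than in the control descending aorta at -2.38 (-3.43 to -1.5), where 26.8% of 1736 genes were past 2-fold. Summed fibroblast markers in these pericytes were 9439 CPM in the control arch and 1347 CPM in the control descending library, and their part in that difference was not tested. Between mutant and control descending pericytes (3.45% of 1419 genes past 2-fold) Ednra was at 0.13 (-0.33 to 0.59), Ednrb at -0.72 (-1.37 to -0.11) and S1pr3 at 0.25 (-0.33 to 0.84).

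Endothelial S1pr1 and Ednrb lay within 2-fold in all 4 comparisons. S1pr1 was at 0.16 (-0.03 to 0.33) between mutant and control arch, 0.01 (-0.08 to 0.10) between mutant and control descending aorta, -0.43 (-0.53 to -0.33) between control arch and descending aorta and -0.28 (-0.46 to -0.12) between the mutant regions. Ednrb was at -0.59, -0.22, -0.27 and -0.64 in the same order, with each interval below 0. The endothelial class included cells of the cluster that holds most lymphatic endothelial cells. They were 11 of 140 in the mutant arch, 41 of 682 in the control arch, 103 of 994 in the mutant descending and 55 of 778 in the control descending library. Their part in the Ednrb differences was not tested. The shares of genes past 2-fold in endothelium were 8.43%, 2.48%, 9.84% and 10.7%. Ednra was lower in mutant than in control descending endothelium at -1.21 (-2.14 to -0.37), from 18 and 34 UMIs, and 3.51 and 8.23 CPM. Summed pericyte markers in those cells were 403 and 764 CPM, and their part was not tested.

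Fibroblasts differed in 4 receptor values past 2-fold, all from few UMIs. Adra1b was lower in the mutant arch than in the control arch at -1.48 (-3.27 to -0.34; 5 and 90 UMIs) and than in the mutant descending aorta at -2.12 (-3.91 to -0.98), and Ptger3 was lower in the mutant arch than in the mutant descending aorta at -2.05 (-4.58 to -0.64; 3 and 58 UMIs). S1pr1 was higher in control arch than in control descending fibroblasts at 1.23 (0.39 to 2.23; 51 and 14 UMIs). The shares of all measured genes past 2-fold were 11.6% in the arch genotype comparison, 12.3% between the mutant regions and 5.91% between the control regions. With 5 UMIs added S1pr1 was at 0.96, Ptger3 at -0.97 and Adra1b in the arch at -0.69, all under 2-fold, and with cells weighted equally S1pr1 was at 0.80 and Ptger3 at -0.77. S1pr1 was also under 2-fold with doublets kept (0.89) and with classes from clusters (0.93). Of the fibroblasts, 57 of 247 in the mutant arch were in the Spp1 cluster and 174 of 1436 in the control arch in a cluster with 2 cells in the other libraries together. Without these clusters P2rx4 between the arch libraries moved from -0.40 to -0.86, S1pr1 had under 50 UMIs, and Ptger3 between the mutant regions was at -4.43, a size that rests on the 0.5 added UMIs. Between mutant and control descending fibroblasts no receptor of 5 measured was past 2-fold (1.16% of genes), and P2rx4 was at 0.07 (-0.12 to 0.27). Ednra was higher in mutant than in control arch fibroblasts by 0.51 (0.17 to 0.83).

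The related genes of each pathway were followed in smooth muscle from fixed lists. Of 11 measured genes among 20 other purine receptors and nucleotide hydrolases, 1 was higher and 3 lower in the mutant than in the control arch past 2-fold, where 4.05% of all genes were higher and 8.38% lower. P2ry14, a receptor for UDP-glucose, was higher at 1.48, from 1.63 against 0.59 CPM. Adora1, the A1 adenosine receptor, was lower at -1.57, Entpd2, an enzyme that hydrolyses extracellular ATP, at -1.40 and P2ry6, the UDP receptor, at -1.07. Between control regions P2rx6 was higher in the arch at 1.62 and Adora2b lower at -1.45. Between the mutant regions P2rx7 was higher in the arch at 1.14, and P2ry6 (-1.35) and Adora1 (-1.22) were lower.

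Of 3 measured genes among 5 endothelin ligands and converting enzymes, Ece2, an endothelin converting enzyme, was the one past 2-fold. Its levels were 19.6 CPM in the mutant arch, 8.55 in the control arch, 3.93 in the mutant descending and 3.8 in the control descending library. The arch was above the descending aorta in both genotypes, at 1.16 (0.79 to 1.57) in controls and 2.31 (1.93 to 2.72) in the mutant, and the mutant arch was above the control arch at 1.20 (0.98 to 1.42).

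Among 13 other prostanoid receptors and synthesis enzymes, 9 were measured in the arch genotype comparison, 3 higher and 1 lower in the mutant (4.05% and 8.38% of all genes). Ptgs2, the inducible cyclooxygenase, was at 19.5 CPM in the mutant arch, 8.40 in the control arch, 4.80 in the mutant descending and 11.1 in the control descending library. It was higher in the mutant arch at 1.22 (1.00 to 1.44) and lower in the mutant descending aorta at -1.21 (-1.60 to -0.83), the only gene of these lists past 2-fold between the descending libraries. Ptgir, the prostacyclin receptor, was higher in the mutant arch at 1.67 and Ptgs1 at 1.27, while Ptger2 was lower at -2.27. Ptges, a prostaglandin E synthase, was higher in the control arch than in the control descending aorta at 2.90 (1.52 to 5.42), from 85 and 3 UMIs. Between the mutant regions Ptgs1 (2.11) and Ptgs2 (2.02) were higher in the arch and Ptger2 (-2.80) lower.

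Among 15 other sphingosine 1-phosphate and lysophosphatidic acid genes, 9 were measured in the arch genotype comparison. Sphk1, the kinase that makes sphingosine 1-phosphate, was higher in the mutant arch at 1.84 (1.62 to 2.07), from 22.7 against 6.32 CPM, and S1pr2 was higher at 1.06. Lpar1, a lysophosphatidic acid receptor, was lower at -1.95 (-2.57 to -1.43). In controls Lpar1 was higher in the arch than in the descending aorta at 3.82 (2.96 to 5.03), and Enpp2, which encodes the lysophosphatidic acid producing enzyme autotaxin, at 1.54. In the mutant Sphk1 (2.20) and Enpp2 (1.35) were higher in the arch and Lpar6 (-1.29) lower.

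Of 24 genes that couple these receptors to contraction, 23 were measured. Past 2-fold were 3 of them in the arch genotype comparison, against 12.4% of all genes, and 4 between the mutant regions, against 11.3%. In the arch Itpr3, an IP3-gated calcium release channel, was higher in the mutant at 2.14, and Rgs5 and Rgs4, which shorten Gq and Gi signals, were lower at -1.84 (139 against 497 CPM) and -1.19. Between the mutant regions Itpr3 was higher in the arch at 1.06, and Rgs5 (-2.60), Ppp1r12a, the targeting subunit of myosin phosphatase (-1.21), and Rgs2 (-1.0) were lower. None was past 2-fold between the descending libraries or between the control regions. The median of the 23 was -0.06 in the arch genotype comparison, where that of all genes was -0.14. Among 6 other adrenergic receptors at most 2 were measured. Adra2c was higher in the control arch than in the control descending aorta at 1.32, and Adrb1, the beta-1 receptor, in the mutant arch than in the mutant descending aorta at 1.04.

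The mutant arch matrix holds a row named RFP, which the other 3 matrices lack. Its reference sequence is not described in the files, and R26-tdT is a red fluorescent reporter switched on by Cre. Of the mutant arch smooth muscle cells, 346 had at least 16 RFP UMIs and 681 had fewer than 8. The cells with more RFP had less Adra1d, 6.93 against 17.3 CPM, a difference of -1.30 (-1.97 to -0.72). They had more Ednra, 16.4 against 5.20 CPM or 1.65 (1.08 to 2.25), and more P2rx1, 66.2 against 39.1 CPM or 0.76 (0.52 to 1.00). S1pr3 stood at 1.44 (0.36 to 2.57), from 18 and 14 UMIs. All of these cells come from 1 library, the limits were set after the RFP values were seen, and no control library can be split the same way.

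The Spp1 cluster held 1106 mutant arch cells, 887 of them ungated, and few cells of the other libraries. Its leading genes Spp1, Ibsp, Comp, Tnfrsf11b and Timp1 are secreted matrix and bone-related proteins. Its cells had P2rx4 at 34.6 CPM and Ednra at 27.3 CPM, above the 16.8 and 8.24 CPM of mutant arch smooth muscle. Adra1d (3.16 CPM) and P2rx1 (5.23 CPM) were below the 14.3 and 45.6 CPM of that class. The cluster and the class overlap, since 158 of the 1106 cells were gated smooth muscle, and a further 57 were gated fibroblasts. Those 158 cells had P2rx4 at 23.4 CPM but Ednra at 6.30 CPM, not above the class. Mutant arch fibroblasts had P2rx4 at 45.5 CPM and Ednra at 47.9 CPM, above the cluster.

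Genes whose levels over 15 class and library profiles followed a receptor most closely were read off among 9908 genes. These profiles share libraries and classes, so the correlations (Pearson's r of log2 CPM) are descriptions. S1pr1 ran with Egfl7 (0.99), Slc9a3r2 (0.99) and Arhgap31 (0.98), of which Egfl7 was used to gate endothelium. Ednra ran with Kcnj8 (0.98), Abcc9 (0.98) and Pdgfrb (0.97), of which Kcnj8 and Abcc9 were used to gate pericytes. P2rx1 ran with Pln, the phospholamban gene (0.96), Prkag2 (0.90) and Dnajb5 (0.89). Ednrb ran with Pnpla6 (0.97), St8sia4 (0.97) and Gpr182 (0.97), S1pr3 with Nr2c1 (0.95), Nfatc4 (0.95) and Tspyl2 (0.94), and P2rx4 with Gaa (0.98), Wnt11 (0.96) and Abca8a (0.94).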

How the data were processed

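Single-cell libraries from 4 groups of mouse aorta, 1 library per group, were analysed from deposited matrices of UMI counts per gene and cell. Cell Ranger 6.1.1 and the mm10 build are named in the submitters' processing notes, and the matrix headers give 6.1.2. The mutant arch counts were made by the authors against a smaller annotation, per the deposited feature lists, so the 27734 identifiers shared by all 4 were used (99.5% to 99.6% of UMIs). Tissue had been minced and digested with collagenase and red cells lysed, per the labels' protocols.

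Cells with at least 500 genes and under 10% mitochondrial UMIs were kept. Scrublet's own threshold marked 0.0192% to 3.85% of cells, so the highest scores were removed instead, at 0.8% of cells per 1000 barcodes. Cells were gated by summed UMIs of fixed marker genes per 10000 (smooth muscle 200, pericytes 15, endothelium 40, fibroblasts 150), with thresholds set after marker levels, but not receptor levels, had been seen. Clusters came from scanpy 1.11.5 (3000 variable genes without the 10 receptors, 40 components, 15 neighbours, Leiden resolution 1). UMIs were summed per class and library. Log2 ratios used 0.5 added UMIs, with exact conditional 95% intervals, and levels have exact Poisson 95% intervals. Cells were thinned to 2000 UMIs to compare shares of cells. A gene counted as measured when the 2 libraries compared summed to 50 UMIs or more, and as apart at 2-fold. Groups under 50 cells were not compared. With 1 library a group no test was possible, and intervals cover counting error only. The ratio method was run on simulated Poisson counts, the model that its intervals assume. That run cannot speak to variation between cells or animals.

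All 10 receptors are named, with the measured genes past 2-fold from each list (at most 6) and the 3 genes most like each of 6 receptors. The receptors and lists were chosen with earlier results of these data known. Alternatives were other gates, filters, doublets kept, scalings, UMI minimums, folds and added UMIs, and, chosen after the clusters were seen, subsets of clusters. Other cell classes were not compared between groups, and 1 leading gene of the clusters is not reported here.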

Additional observations from a re-analysis of the deposited data

Results flagged for a closer look

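The genotype difference ran opposite ways in the 2 regions for 2 receptors in smooth muscle, and this contrast was not tested, since each group has 1 library. P2rx1 was higher in the mutant arch (2.20) and lower in the mutant descending aorta (-0.60), a gap of 2.80 on the log2 scale. The arch libraries lie mostly in different clusters. In the Sncg cluster P2rx1 was at 0.30 (-0.05 to 0.69) in the arch and -0.52 (-0.74 to -0.31) in the descending aorta. In the Unc5c cluster, over gated and ungated cells, it was 52.1 CPM in the mutant and 16.6 CPM in the control arch. The part of cluster make-up in the gap was not tested. S1pr3 was lower in the mutant arch (-1.03) and higher in the mutant descending aorta (0.88), a gap of -1.91, and its values rest largely on the Rergl cluster.

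Several receptors were higher in cell classes outside the 4 compared than in any of those 4. Ednrb, the endothelin B receptor, stood at 391 CPM in mononuclear phagocytes of the control arch, 492 CPM in those of the mutant descending library and 800.1 CPM in those of the control descending library, but at 86.8 CPM in those of the mutant arch. The phagocytes differed in make-up: 618 of 920 in the mutant arch lay in a cluster with 20, 4 and 6 in the other libraries, in the same order. Another cluster held 100 mutant arch phagocytes, but 256 of 311, 365 of 468 and 339 of 518 in the others. The part of this make-up in the Ednrb levels was not tested. In lymphatic endothelium Ednrb was at 349 CPM in the control arch, 335 CPM in the mutant descending and 614 CPM in the control descending library. P2rx4 in mononuclear phagocytes was at 97.1 CPM in the mutant arch, 119.5 CPM in the control arch and 109 CPM in the control descending library. P2rx1 in control arch T cells was at 20.7 CPM, above the 9.92 CPM of control arch smooth muscle. Of these 393 T cells, 239 lay in a cluster with 2 T cells in the mutant arch and 0 in each descending library. Their part in the P2rx1 level was not tested. Ptger3 in control arch mesothelial cells was at 18.8 CPM.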

How the results depend on the processing

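No paired analysis was possible because each group has 1 library and the labels carry no replicate numbers. Of 81 measured receptor differences over the 4 classes, 23 were past 2-fold. The number still past 2-fold in the same direction was 20 of 23 with doublets kept, 22 of 23 with median-of-ratios scaling, 21 of 23 with cells weighted equally, 19 of 23 with 5 UMIs added, 21 of 22 with classes from clusters, 15 of 16 with the stricter gate and 18 of 19 with 1000 genes and 5% mitochondrial UMIs. At 200 UMIs 12 of the 23 were still measured. Their ratios are the same by construction, so that setting does not check them. S1pr3 in the arch was at -0.96 with doublets kept and -0.89 with 5 UMIs added, and Ednrb between control regions was at -0.87 with the stricter gate. Smooth muscle receptor counts changed as follows. Between mutant regions 4 receptors were past 2-fold at 200 UMIs, since fewer genes were measured, and 3 without the Rergl cluster. Between descending libraries 2 passed at 1.5-fold. In the Sncg cluster alone 1 receptor passed between the arch libraries, 2 between control regions and 3 between mutant regions, with fewer cells. S1pr3 in the arch reversed to 0.95 without the Rergl cluster. The cluster subsets were chosen after seeing the data. Thinning, which removes UMIs from each cell, moved 58 of 64 shares of cells. Counts of other pathway genes moved in 60 of 240 and of receptors in the other 3 classes in 42 of 109. These include the settings with another fold or UMI minimum, which change what is counted. The cause of the other moves was not tested. Adra1a, Ednrb and S1pr1 in smooth muscle are limited by depth.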
